A study of Rattus norvegicus with 44 samples.

Results

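H4-II-E-C3 is an established cell line from a rat hepatoma, and 10 genes of the immediate early and growth signal response were followed in it after exposure to nickel, chromium or cadmium. The genes were Fos, Jun, Junb, Egr1, Myc, Klf6, Foxq1, Dusp1, Ier3 and Emp1. They were selected on measured values of these same exposures, so their levels and differences are descriptions and carry no test. On the Affymetrix rat array used, 18 probe sets name exactly 1 of the 10 genes, of 20826 probe sets that name a single gene, and 0 probe sets name a member together with another gene. The probe set of a gene with the highest mean over all arrays is called its leading probe set.

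RNA was taken from flasks of confluent cells after 24 h in nickel chloride at 40, 140 or 400 µM, sodium dichromate at 0.275, 1 or 10 µM, cadmium chloride at 0.2, 0.55 or 1.2 µM, or no metal. The concentrations were set by the study from a cell viability assay, and by its methods the cells were grown with serum but washed and exposed, controls included, in medium without serum. By the labels there are 44 arrays, with 4 biological replicates of each of the 9 exposures and a Control 1 and a Control 2 array in each replicate. All values are log2 values made by robust multi-array averaging, on which a difference of 1 is a doubling.

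Part of the labels is in doubt, and this limits every result. When the array of replicate 1 was compared with the other replicates of the same label over the 15521 probe sets brighter than the median by mean over all arrays, after subtraction of the controls, nickel at 400 µM correlated at 0.874 with replicate 2 but at 0.081 and -0.126 with replicates 3 and 4. For chromium at 10 µM the values were 0.845, -0.169 and 0.229, and for cadmium at 1.2 µM they were 0.058, -0.083 and 0.065. The labels were kept. The comparisons use only the 20 arrays of replicates 1 and 2 for which no other reading of the titles names another condition, and 22 of the 44 arrays were left out. This leaves 2 arrays for each nickel and chromium concentration and for cadmium at 0.2 µM, 1 array each for cadmium at 0.55 and 1.2 µM, and 4 control arrays. For the differences that passed the fold threshold used below, the values over all 4 replicates as labelled are given after the main ones.

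The line kept liver character under these conditions. Of 9 hepatocyte markers with a probe set, 8 were brighter than the median probe set, among them albumin and the liver factor Hnf4a. The marker lists of blood cells, endothelium and bile duct cells had 0 such probe sets, and that of stellate cells had 1 of 5, Acta2. The mean of the 9 hepatocyte markers ran from 10.55 to 10.60 in the controls, from 9.04 to 9.54 at 400 µM nickel and from 9.83 to 9.88 at 10 µM chromium, and was 10.11 at 1.2 µM cadmium. It moved with exposure beside the genes described here, and its part in their changes was not tested.

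Immediate early genes are transcribed within minutes of a stimulus, without the need for new protein, when growth factors or stress switch on the MAP kinases. Fos, Jun and Junb encode subunits of AP-1, a dimeric transcription factor, and Egr1, Myc and Klf6 encode further transcription factors of the same early wave. The response is normally short, because its mRNAs decay quickly and because phosphatases such as Dusp1 switch the kinases off. A measurement after 24 h therefore sees the sustained level and not the early peak.

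The stretch around the transcription start was read for 6 of the 10 genes from the RefSeq promoters of build GRCr8, each covering 250 bases before the start and 50 after it. These windows were searched on both strands for the CArG box bound by serum response factor, the cyclic AMP response element TGACGTCA, the AP-1 site TGANTCA and the E-box CACGTG, to show which of these letters stand near the start of genes that moved together or apart. The windows that hold a match are shown, those of Egr1, Dusp1, Emp1 and Klf6. By Pearson's r over all 44 arrays, levels of Dusp1, Emp1 and Klf6 moved together, at 0.8 to 0.893. Egr1 moved apart from them by that measure, at 0.026 to 0.089. By Spearman's rho Egr1 was less apart, at 0.415 with Dusp1, 0.406 with Klf6 and -0.009 with Emp1. Capitals mark the motifs.
Egr1 promoter, chr18:26736828-26737127, plus strand: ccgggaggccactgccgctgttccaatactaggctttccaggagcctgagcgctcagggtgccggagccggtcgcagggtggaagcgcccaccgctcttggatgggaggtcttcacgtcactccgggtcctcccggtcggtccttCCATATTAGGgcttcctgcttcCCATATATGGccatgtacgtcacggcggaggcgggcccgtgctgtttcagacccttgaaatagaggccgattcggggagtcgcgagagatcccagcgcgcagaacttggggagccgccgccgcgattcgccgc
Dusp1 promoter, chr10:17184603-17184902, plus strand: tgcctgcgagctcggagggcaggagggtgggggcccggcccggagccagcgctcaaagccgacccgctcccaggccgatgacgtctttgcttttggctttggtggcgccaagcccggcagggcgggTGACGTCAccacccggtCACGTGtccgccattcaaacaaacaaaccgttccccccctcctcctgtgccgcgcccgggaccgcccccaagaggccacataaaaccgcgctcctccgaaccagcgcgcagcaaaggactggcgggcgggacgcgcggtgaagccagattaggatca
Emp1 promoter, chr4:169943980-169944279, plus strand: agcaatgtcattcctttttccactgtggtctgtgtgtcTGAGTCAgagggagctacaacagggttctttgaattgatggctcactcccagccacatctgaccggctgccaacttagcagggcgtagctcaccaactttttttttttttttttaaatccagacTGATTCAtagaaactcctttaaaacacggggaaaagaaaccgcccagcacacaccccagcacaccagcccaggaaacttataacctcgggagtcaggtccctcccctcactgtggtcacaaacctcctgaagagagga
Klf6 promoter, chr17:69458429-69458728, minus strand: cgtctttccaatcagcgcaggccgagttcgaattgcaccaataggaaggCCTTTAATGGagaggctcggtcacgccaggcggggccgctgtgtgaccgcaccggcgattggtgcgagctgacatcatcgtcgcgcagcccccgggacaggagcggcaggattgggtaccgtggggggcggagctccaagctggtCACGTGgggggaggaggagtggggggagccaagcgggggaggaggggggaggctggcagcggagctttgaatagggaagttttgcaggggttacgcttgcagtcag
Egr1 holds CArG boxes that begin at -105 and -83 from the start. Dusp1 holds a cyclic AMP response element at -124 and an E-box at -107, Emp1 AP-1 sites at -212 and -88, and Klf6 a CArG box at -201 and an E-box at -56. The windows of Foxq1 and Junb held none of the 4 motifs, although by Pearson's r Foxq1 moved together with Dusp1, Emp1 and Klf6, and Junb with Egr1. The rho of Foxq1 with Dusp1, 0.429, was close to that of Egr1 with Dusp1, 0.415. Among 33469 promoters of the same length, 1.64% hold a CArG box, 1.83% the cyclic AMP response element, 7.33% an AP-1 site and 6.42% the E-box. A match is a run of letters and not a shown binding site.

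At 400 µM nickel, 7 of the 10 genes were higher than the controls by at least 1.8-fold, the fold threshold of the study's methods, and 1 was lower. In the arrays of this exposure the 7 genes Emp1, Dusp1, Foxq1, Jun, Klf6, Myc and Ier3 lay above all 4 control arrays, and Egr1 lay below all of them. Over the 15521 brighter probe sets 3.28% were higher and 4.01% lower by that fold, and 30.5% lay above and 28.6% below all 4 controls. At 10 µM chromium 2 genes passed the fold, Jun and Foxq1, against 0.683% of probe sets higher and 1.42% lower. There 7 lay above all 4 controls, against 28.9%, namely Dusp1, Emp1, Foxq1, Jun, Klf6, Myc and the dim Fos. At 1.2 µM cadmium 5 genes passed the fold, Emp1, Jun, Dusp1, Egr1 and Foxq1, against 1.36% higher and 0.999% lower. In that array 9 of 10 lay above all 4 controls, against 41.0%. These exposures took part in the choice of the genes, so the counts are read only as a description. In RNA of whole flasks, a change in all cells and a change in some of them cannot be told apart.

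**Figure D1:**
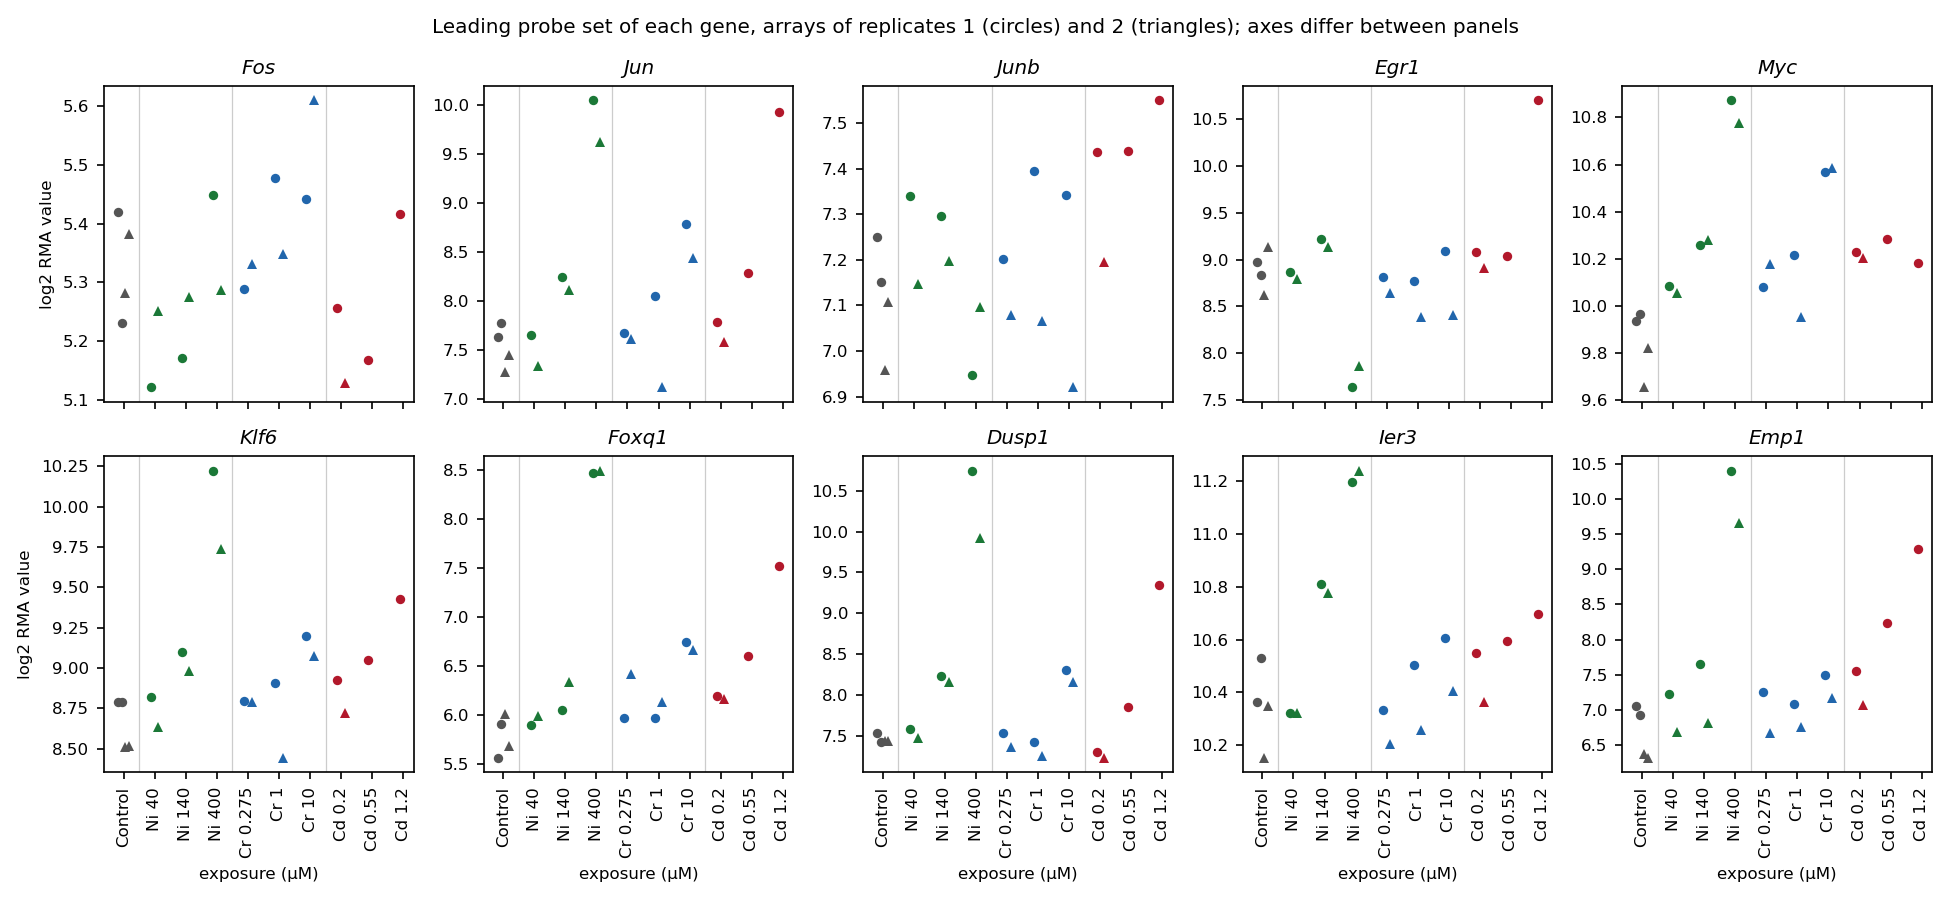
Log2 value of the leading probe set of each gene (y axis) by exposure in µM (x axis), with 1 point for each array of replicates 1 (circles) and 2 (triangles), controls in grey, nickel (Ni) in green, chromium (Cr) in blue and cadmium (Cd) in red. Both nickel arrays at 400 µM stand above all 4 controls for 7 genes and below them for Egr1, whose highest point is the cadmium array at 1.2 µM.

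The AP-1 subunits did not move as one. Jun, the subunit that JNK phosphorylates, read 7.64, 7.78, 7.28 and 7.45 in the 4 controls. It read 10.05 and 9.63 at 400 µM nickel, 8.79 and 8.45 at 10 µM chromium and 9.93 in the single array at 1.2 µM cadmium. All 5 of these arrays lay above every control. The difference from the controls of the same replicate was 2.30 ± 0.06 (SD, n = 2) for nickel, a 4.93-fold higher level, and 1.08 ± 0.00 (SD, n = 2) for chromium, 2.12-fold, and it was 2.22 for cadmium, 4.66-fold. The differences at nickel 400 µM and cadmium 1.2 µM lay closer to each other than the residual SD of 0.187, so their order is not settled. At 140 µM nickel Jun was still higher by 0.65. Its mean differences at 40 µM nickel, at the lower chromium concentrations and at 0.2 µM cadmium ran from -0.04 to 0.15, with the arrays at 1 µM chromium apart at 8.05 and 7.12.

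Junb, the AP-1 subunit often set against Jun in growth control, stayed near its control level with nickel and chromium. It read between 6.96 and 7.25 in the 4 controls, 6.95 and 7.10 at 400 µM nickel, 7.34 and 6.92 at 10 µM chromium, and 7.55 at 1.2 µM cadmium. Nickel and chromium arrays overlapped the controls at every concentration. With cadmium the differences were 0.20 at 0.2 µM, 0.24 at 0.55 µM and 0.35 at 1.2 µM, against a residual SD of 0.12. The last, the largest of all, came from 1 array that lay above all 4 controls. The control arrays kept from replicates 3 and 4 reached 7.685, above that array.

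Fos, the partner that forms the classic AP-1 dimer with Jun, was dim. Both of its probe sets were dimmer than the median, at percentiles 38.2 and 3.42 of the means, so a level near background and a lack of response cannot be told apart. The brighter one read 5.42, 5.23, 5.28 and 5.38 in the controls, 5.45 and 5.29 at 400 µM nickel and 5.42 at 1.2 µM cadmium. Its largest difference over the 9 exposures was 0.20, at 10 µM chromium, against a residual SD of 0.092. Both chromium arrays at that concentration lay above all 4 controls. The dimmer one read 5.11 at 1.2 µM cadmium, against 3.82, 4.04 and 3.71 in 3 control arrays and 5.14 in the Control 2 array of replicate 2, so that cadmium array did not stand outside the controls.

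Egr1, the zinc finger factor whose promoter carries the CArG boxes shown above, went in opposite directions. It read 8.98, 8.83, 8.62 and 9.14 in the controls, 7.64 and 7.86 at 400 µM nickel, and 10.69 in the array at 1.2 µM cadmium. The nickel arrays lay below every control and the cadmium array above every control. The level was lower by 2.21-fold with nickel, a log2 difference of -1.14 ± 0.18 (SD, n = 2), and higher by 3.46-fold with cadmium, a log2 difference of 1.79 in 1 array. Cadmium at 0.55 µM differed by 0.14 and nickel at 140 µM by 0.28, and both overlapped the controls. Chromium at 10 µM read 9.09 and 8.41, on either side of the control mean. The single control arrays kept from replicates 3 and 4, which have no exposed array beside them here, read 9.86 and 9.49. The 6 control arrays thus ran from 8.62 to 9.86 across replicates, whereas the nickel difference was taken within replicates 1 and 2. That span was wider than the difference at 400 µM nickel, although neither nickel array fell within it.

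Myc, the growth factor-responsive transcription factor that drives ribosome production with its partner Max, moved in small steps. It read 9.94, 9.97, 9.65 and 9.82 in the controls, 10.26 and 10.28 at 140 µM nickel and 10.87 and 10.78 at 400 µM nickel. At 10 µM chromium it read 10.57 and 10.58. The differences were 0.43 ± 0.17 and 0.98 ± 0.08 (SD, n = 2) for these nickel concentrations and 0.73 ± 0.16 (SD, n = 2) for chromium, a 1.66-fold higher level. With cadmium the difference was 0.37 at 0.2 µM, 0.33 at 0.55 µM and 0.23 at 1.2 µM. Its array at 1.2 µM cadmium, at 10.18, was no higher than those at the lower cadmium concentrations, which held for no other member.

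Klf6, a zinc finger factor of the early growth response, read 8.79, 8.79, 8.51 and 8.52 in the controls and 10.22 and 9.74 at 400 µM nickel, 2.51-fold higher. It read 9.20 and 9.08 at 10 µM chromium and 9.43 at 1.2 µM cadmium, all above the controls, with differences of 0.48 and 0.64. Foxq1, a forkhead transcription factor, read between 5.56 and 6.01 in the controls and 8.47 and 8.49 at 400 µM nickel, 6.46-fold higher. It read 6.75 and 6.67 at 10 µM chromium, 1.89-fold higher, and 7.52 at 1.2 µM cadmium, 3.45-fold higher. Its difference at 0.55 µM cadmium was 0.86, just past the threshold of 0.85, and that of Ier3 at 400 µM nickel was 0.87, while that of Dusp1 at 10 µM chromium, 0.77, fell just short.

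Dusp1, the nuclear phosphatase that takes phosphate off JNK and p38, had tight controls. These read 7.54, 7.42, 7.43 and 7.43. The nickel arrays read 8.23 and 8.16 at 140 µM and 10.75 and 9.93 at 400 µM, and the cadmium array at 1.2 µM read 9.35. The difference at 400 µM nickel was 3.26 in replicate 1 and 2.49 in replicate 2, a 7.36-fold higher level on average, and the cadmium difference was 1.87, 3.66-fold. At 10 µM chromium, with 8.30 and 8.15, it was 0.77, which did not differ from that at 140 µM nickel, 0.74, beyond the residual SD of 0.179. The control arrays kept from replicates 3 and 4, which have no exposed array beside them here, read 7.77 and 8.01. They lay closer to the arrays at 140 µM nickel and 10 µM chromium than the controls of replicates 1 and 2 did.

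Ier3, an early response protein that modulates apoptosis and ERK signalling, was highest with nickel. It read 10.36, 10.53, 10.15 and 10.35 in the controls, 10.81 and 10.78 at 140 µM nickel and 11.20 and 11.24 at 400 µM nickel. The differences were 0.45 ± 0.12 and 0.87 ± 0.17 (SD, n = 2). At 10 µM chromium it differed by 0.16, overlapping the controls, and at 1.2 µM cadmium by 0.25, with 10.70 in 1 array.

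Emp1, a membrane glycoprotein that crosses the membrane several times, showed the largest difference of the 10 genes. It read 7.06, 6.93, 6.37 and 6.32 in the controls, where replicate 2 lay below replicate 1. It read 10.40 and 9.66 at 400 µM nickel, 10.2-fold higher, with a difference of 3.36 ± 0.07 (SD, n = 2). With cadmium it read 7.55 and 7.08 at 0.2 µM, 8.24 at 0.55 µM and 9.29 at 1.2 µM, with differences of 0.65, 1.24 and 2.29. Emp1 and Foxq1 were the members whose cadmium differences stepped up at each concentration by more than their residual SD, 0.128 and 0.122. At 10 µM chromium it differed by 0.66, and the 3 lowest nickel and chromium differences lay between 0.25 and 0.30.

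**Figure D2:**
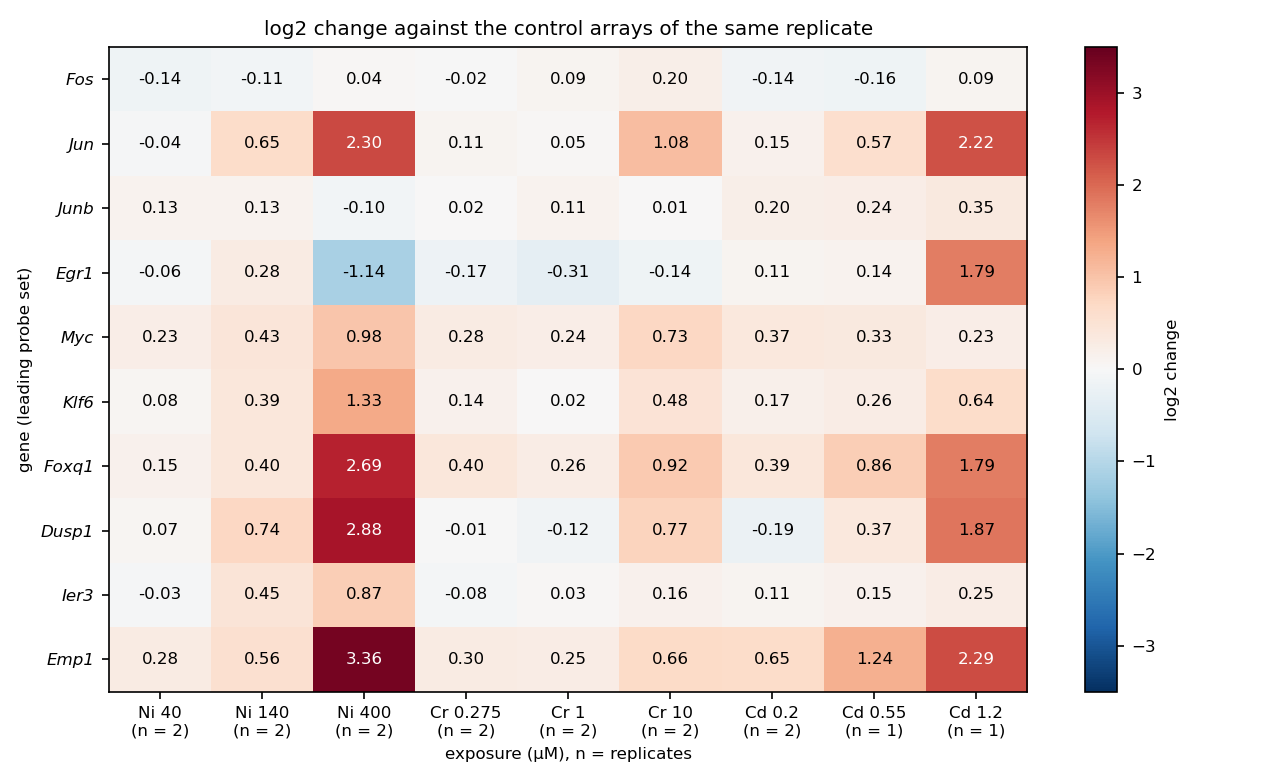
Mean log2 difference of the leading probe set from the control arrays of the same replicate (colour and printed value) for each gene (rows) and each exposure in µM (columns), with the number of replicates under each column. Nickel at 400 µM spans -1.14 for Egr1 to 3.36 for Emp1, and chromium at its lower concentrations stays within 0.40 of 0 for all genes.

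Below the highest concentrations no member passed 1.8-fold except Emp1 and Foxq1 at 0.55 µM cadmium. The Emp1 difference there, 1.24, was larger than that of any member at 10 µM chromium, where Jun was highest with 1.08. At 140 µM nickel 6 of the 10 genes lay above all 4 controls, namely Dusp1, Foxq1, Ier3, Jun, Klf6 and Myc, where 16.8% of all probe sets did. None reached 1.8-fold there, as 0.245% of all probe sets did in the upward direction. In limma's moderated fit over all probe sets 1.51% passed an adjusted p of 0.05 at 140 µM nickel, 0.0% at 40 µM nickel, 0.0% at 0.275 µM chromium and 0.00644% at 1 µM chromium, the last being 1 probe set. At an unadjusted p under 0.05 the limma counts were 968 at 40 µM nickel and 980 at 0.275 µM chromium. At 0.55 µM cadmium, with 1 array, Emp1 and Foxq1 passed 1.8-fold, against 0.251% of all probe sets, and 8 of 10 genes lay above all 4 controls, against 42.1%.

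The number and brightness of the probe sets set how firmly each gene is measured. Of the 18 probe sets 14, from 9 of the 10 genes, were brighter than the median by mean value, and the other 4 were both Fos probe sets and the dimmer ones of Dusp1 and Foxq1. The leading Jun probe set and 1 other carry the suffix by which the maker marks probes shared by several transcripts. Jun and Klf6 have 3 probe sets each, and Dusp1, Emp1, Foxq1 and Fos have a pair each. At 400 µM nickel the probe sets of Dusp1 differed from controls by 2.88 and 2.99, those of Emp1 by 3.36 and 2.35, those of Foxq1 by 2.69 and 2.22, those of Jun by 2.30, 1.88 and 1.71, and those of Klf6 by 1.33, 1.45 and 1.49. At 1.2 µM cadmium the Jun probe sets read 2.22, 1.15 and 1.71. At 10 µM chromium those of Klf6 read 0.48, 0.81 and 0.20, and the last overlapped the controls. With the mean of all probe sets of a gene in place of the leading one, 10 of 13 differences past 1.8-fold stayed past it. The direction at 400 µM nickel was shared by all probe sets of each of these 5 genes.

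**Figure D3:**
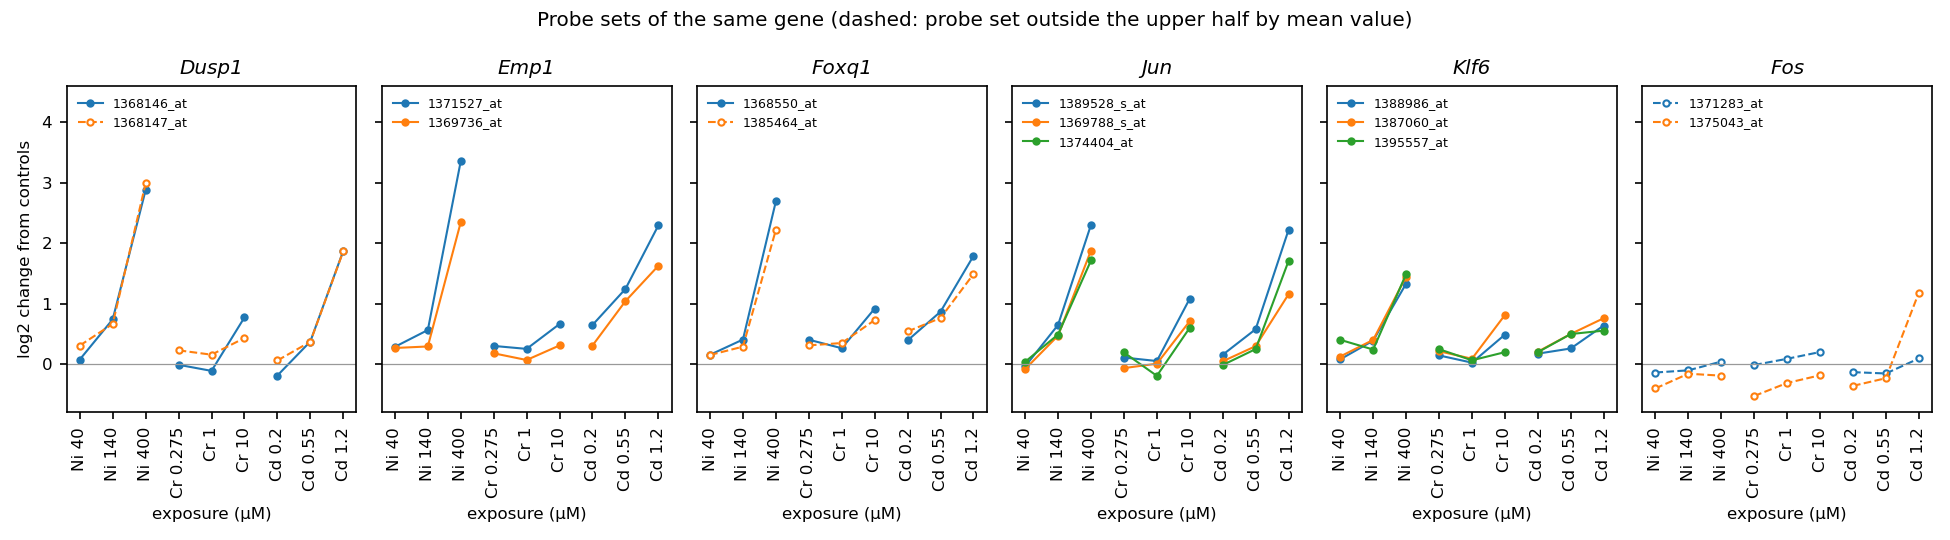
Log2 difference from the controls (y axis) by exposure in µM (x axis) for every probe set of the genes that have more than 1, with a line for each metal. The probe sets of Dusp1, Emp1, Foxq1, Jun and Klf6 are all higher than the controls at 400 µM nickel, whereas the dimmer Fos probe set reads 1.18 at 1.2 µM cadmium and the brighter one 0.09.

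Over all 4 replicates as labelled the differences at 400 µM nickel became 1.40 for Dusp1, 1.8 for Emp1, 1.44 for Foxq1, 1.14 for Jun, 0.74 for Klf6, 0.53 for Myc, 0.43 for Ier3 and -0.55 for Egr1. Those at 10 µM chromium became 0.67 for Jun and 0.69 for Foxq1, both below the threshold. Those at 1.2 µM cadmium became 0.53 for Dusp1, 0.53 for Emp1, 0.29 for Jun, 0.20 for Foxq1 and 0.37 for Egr1, all below it. At 0.55 µM cadmium they grew, to 2.57 for Emp1 and 1.29 for Foxq1. At each of these cadmium concentrations 3 of the 4 labelled arrays are among those in doubt. Of the 17 differences past 1.8-fold, 6 stayed past it with the labels of all arrays taken as given, those of Dusp1, Emp1, Foxq1 and Jun at 400 µM nickel and those of Emp1 and Foxq1 at 0.55 µM cadmium. The 22 arrays left out reached high values too, up to 9.63 for Dusp1, 9.52 for Emp1, 9.44 for Jun, 10.38 for Egr1 and 7.79 for Foxq1. The values over all 4 replicates take in these arrays, so they cannot show whether a difference holds in further replicates.

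The relations between the genes need no label and were taken over all 44 arrays. Among Dusp1, Emp1, Foxq1, Jun, Klf6, Myc and Ier3 the 21 pairs had Pearson's r from 0.545 to 0.901, with a median of 0.733, and Spearman's rho from 0.379 to 0.813. The closest pair was Jun and Foxq1, with r = 0.901 and rho = 0.800. These 7 are the genes past 1.8-fold higher at 400 µM nickel, and the members were selected on values of these same exposures. High coefficients among the 7 are therefore read only as a description. By r Egr1 stood outside this group, from -0.399 for Myc to 0.089 for Dusp1. By rho Egr1 ran from -0.344 for Myc to 0.415 for Dusp1, which overlaps the rho values within the group. Egr1 ran instead with Junb, at r = 0.685 and rho = 0.751. No replicate term was taken out of these coefficients. The controls kept from replicates 3 and 4 reached 9.86 for Egr1 and 7.685 for Junb, against at most 9.14 and 7.25 in replicates 1 and 2. The part of such differences between replicates in this correlation was not tested. Fos had r between -0.169 and 0.154 with the other 9 genes. The 44 points share exposures, replicates and array processing and are not independent, and without the 2 arrays farthest from the median of Fos 2 of 45 coefficients changed sign, both of pairs with Fos, and the largest move was 0.178.

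**Figure D4:**
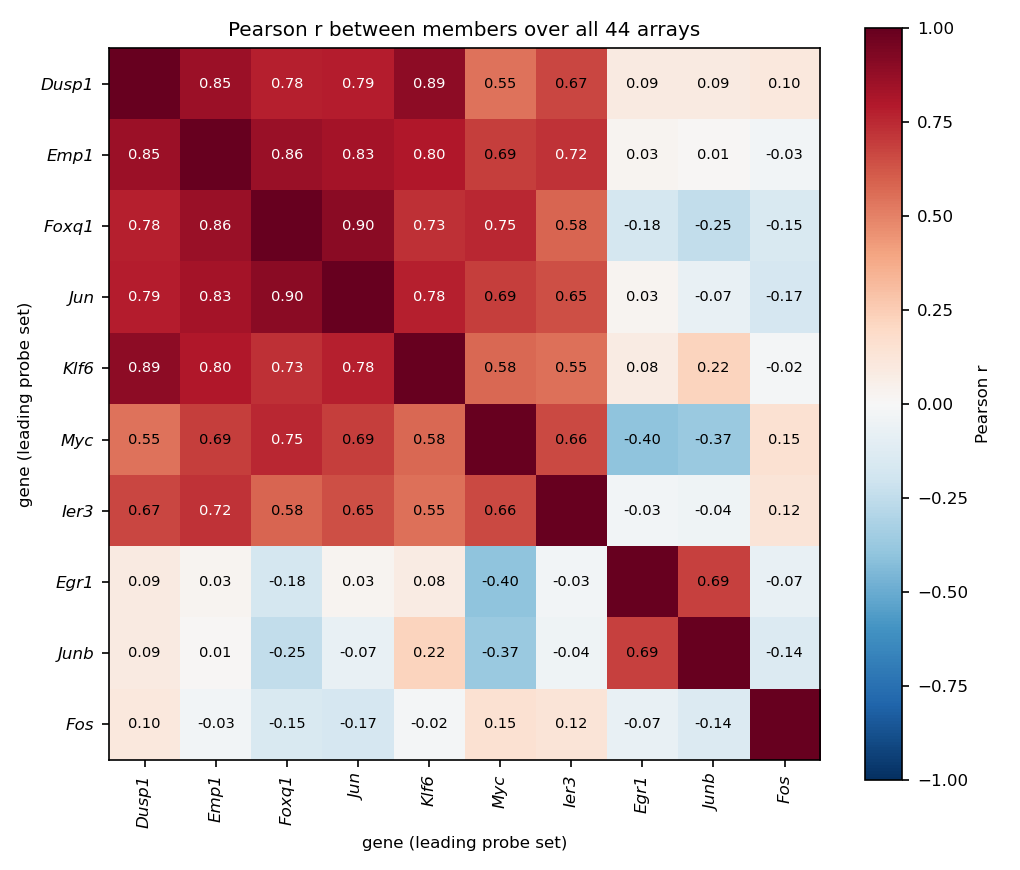
Pearson's r between the leading probe sets of each pair of genes over all 44 arrays (colour and printed value). A block of high values holds Dusp1, Emp1, Foxq1, Jun, Klf6, Myc and Ier3, the 7 genes past 1.8-fold higher at 400 µM nickel. All members were selected on values of these exposures. Egr1 with Junb stands apart at 0.69, with no replicate term taken out.

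The gene outside the 10 whose pattern over the 44 arrays was most like each member was found among 12190 probe sets. For Dusp1 it was Litaf, with r = 0.94, for Emp1 the annexin Anxa2, with 0.935, and for Foxq1 the small heat shock protein gene Hspb8, with 0.922. For Myc it was the aldo-keto reductase gene Akr1b8, with 0.929, for Ier3 Mix23, with 0.93, for Klf6 the tropomyosin gene Tpm4, with 0.905, and for Jun LOC102549726, with 0.905. Another Jun probe set was closest to Atf3, with 0.902. The values for the remaining genes were lower, with 0.816 for Fos and the peroxiredoxin gene Prdx2, 0.796 for Egr1 and Tcp11l2 and 0.795 for Junb and Atp6ap2.

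The pathway around these genes was read from 7 lists of genes that are no members, with 1 probe set a gene, and tested gene by gene in limma with Benjamini-Hochberg adjustment over all 15521 probe sets. Over all of them 25.9% were higher and 22.7% lower at 400 µM nickel, and 18.7% higher and 16.2% lower at 10 µM chromium, with a median log2 difference of 0.01 in each. Of the other AP-1 and Maf subunits, 6 of 8 tested were higher and 0 lower at 400 µM nickel, with a median of 0.55, and 4 were higher and 0 lower at 10 µM chromium, with a median of 0.18. Atf3, a stress-induced partner of Jun, differed by 3.69 ± 0.34 (SE, limma adjusted p = 2.95e-04) with nickel, by 1.22 ± 0.14 (SE, limma adjusted p = 7.01e-04) with chromium and by 3.44 in the cadmium array at 1.2 µM. Maff, a small Maf protein, was higher by 1.74 with nickel and 1.16 with chromium, and Fosl2, a Fos relative, by 1.12 and 0.92. Fosl2 read 0.04 above the controls in the cadmium array.

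Of 34 other immediate early genes tested, 19 were higher and 4 lower at 400 µM nickel, with a median of 0.44, and 10 were higher and 3 lower at 10 µM chromium, with a median of 0.02. Without the controls of replicate 1 the chromium count of 13 fell to 8. The largest rises with nickel were those of Ifrd1 by 1.77, Id1, an inhibitor of helix-loop-helix factors, by 1.63, the small GTPase gene Rhob by 1.58 and the repressor gene Nfil3 by 1.38. Sgk1, the serum- and glucocorticoid-regulated kinase gene, fell by 1.51 and Id2 fell by 1.13. With chromium the largest rise was that of Klf10, by 1.19. Rhob and Nfil3, at -0.26 and -0.12, did not pass the test with chromium. Whether such genes differ between the metals was not tested.

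Of the feedback inhibitors of MAP kinases, 3 of 7 tested were higher and 0 lower at 400 µM nickel, and 3 were higher and 2 lower at 10 µM chromium, with medians of 0.06 and 0.07. Errfi1, which blocks the EGF receptor, rose by 1.60 with nickel and fell by 0.32 with chromium. Spry1, an inhibitor of receptor signalling, and Dusp5, a nuclear ERK phosphatase, rose by 1.19 and 1.10 with nickel and by 0.52 and 0.51 with chromium. Dusp6, the cytoplasmic ERK phosphatase, differed by 0.04 with nickel, which did not pass the test, and fell by 0.35 with chromium. The chromium count of 5 fell to between 1 and 3 when the controls of replicate 1 or 2, or chromium replicate 1 or 2, were left out.

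Growth factor ligands and receptors and the kinases themselves moved in both directions. Of 9 ligands and receptors, 3 were higher and 2 lower at either concentration, with medians of -0.09 at 400 µM nickel and -0.05 at 10 µM chromium. Without the controls of replicate 1 the counts of 5 fell to 3 with nickel and 2 with chromium, and without those of replicate 2 to 3 with chromium. Vegfa, the vascular growth factor, was higher by 0.90 with nickel, and Met, the receptor for hepatocyte growth factor, fell by 0.96 with nickel and fell by 0.63 with chromium. Gdf15, a stress-induced cytokine of the TGF-beta family, was higher by 1.19 ± 0.21 (SE, limma adjusted p = 0.00427) with chromium and differed by -0.09 with nickel, which did not pass. Of 15 genes of the kinase cascade and the serum response factors, 4 were higher and 4 lower with nickel and 1 higher and 3 lower with chromium, with medians of -0.10 and 0.01. The chromium count of 4 fell to 1 without the controls of replicate 1 or without chromium replicate 2, and to 2 without the controls of replicate 2. Map2k1, which encodes the MEK kinase upstream of ERK, and Mapk8, which encodes a JNK, were higher by 1.34 and 0.90 with nickel. Map2k6, which activates p38, fell by 1.59 with nickel and fell by 0.94 with chromium.

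Myc was read with its partners and antagonists and with its targets. Of 9 partners and antagonists, 2 were higher and 2 lower with nickel, and 0 higher and 1 lower with chromium, with medians of 0.16 and -0.11. Without chromium replicate 1 the chromium count of partners was 2 in place of 1. Mlx, a Max-like protein, fell by 0.93 with nickel, and Mxd4, an antagonist of Myc, fell by 0.66 with chromium. Of 23 target genes of ribosome and polyamine synthesis, 12 were higher and 1 lower with nickel, with a median of 0.25, and 17 higher and 0 lower with chromium, with a median of 0.34. The enzymes of polyamine synthesis Srm and Odc1 were higher by 0.65 and 0.59 with nickel, and the nucleolar genes Gnl3 and Gar1 by 0.63 and 0.62 with chromium. Gar1 and Gnl3 were also called higher with nickel, by 0.59 and 0.29. Odc1 was called higher with chromium too, by 0.28, whereas Srm, at 0.045, did not pass there. Cdk4, a cell cycle kinase, was the target that fell, by 0.52 with nickel. Without the controls of replicate 1 or 2, or chromium replicate 1 or 2, between 7 and 10 targets were called with chromium, and without the controls of replicate 2 there were 8 with nickel. In the cadmium array at 1.2 µM the median over the 23 targets was 0.11, against 0.02 over all probe sets.

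**Figure D5:**
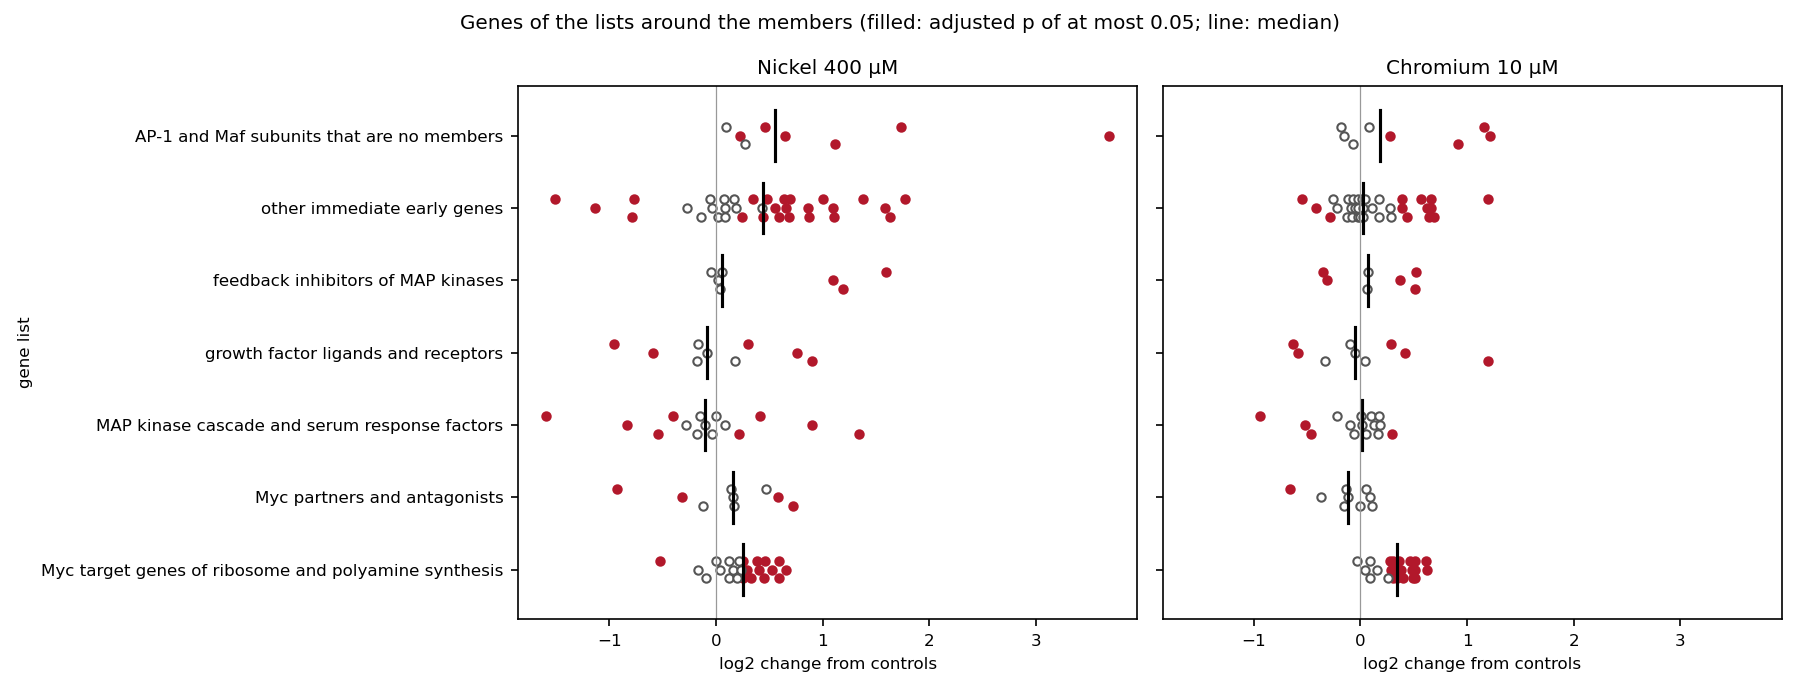
Log2 difference from the controls (x axis) for each tested gene of the 7 lists (rows) at 400 µM nickel (left) and 10 µM chromium (right), filled where limma's adjusted p was at most 0.05, with a vertical line at the median of each list. Atf3 stands at 3.69 with nickel, and Cdk4, at -0.52 with nickel, is the called Myc target left of 0.

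All these calls rest on 2 replicates. With the labels of all 4 replicates taken as given, limma called 0 probe sets at either concentration, so none of the list genes was called there. That fit takes in the arrays whose labels are in doubt, so it cannot show whether the calls would hold in more replicates.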

How the data were processed

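Total RNA of rat hepatoma cells was hybridised to 44 Affymetrix rat genome arrays. The deposited values are log2 values, which the authors computed with RMA in Partek. Samples were grouped by their labels. The genes and lists were chosen with earlier results of these data known. Of 31042 probe sets that are not array controls, 20826 name 1 gene, 436 several and 9780 none. The 15521 with a mean over all arrays above the median were tested. Models were fitted per metal in limma 3.58.1 (R 4.3.3), with terms for concentration and replicate number and with the mean of Control 1 and Control 2 as the control sample. Calls were made at a Benjamini-Hochberg adjusted p of 0.05, and 3 residual degrees of freedom were left. The replicate number stands for the batch term of the methods, and nothing ties the numbers to dates. Cadmium was described without a test. Arrays were left out where a second order of the titles, with the 4 repeated microarrays last, names another condition than the label does. That order had been found to match the condition means of the study better than the labels do, but no array was reassigned. That Control 1 and Control 2 are separate cultures is not stated, so they were averaged, and the spread between them does not enter the p-values of this fit. These p-values measure the spread between the replicates, labelled biological, that is left after the terms for concentration and replicate number. Named genes were all members, up to 4 of the largest called changes per list and metal, given in part, and the gene most like each member over the 44 arrays; the others named in the lists, such as Nfil3, Id2, Dusp6, Rhob with chromium and Cdk4, were picked after their values were seen. On simulated data for nickel at 400 µM with 15521 probe sets, 97.0% of 2-fold changes were called, 100.0% of 4-fold changes, and 0.03% of unchanged probe sets. The simulation changed 200 probe sets, with independent noise and no doubt on labels, whereas 7555 were called in the data. Its rates therefore need not hold for these calls. The number of arrays limits the precision. Alternatives are in the closing section.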

Additional observations from a re-analysis of the deposited data

Results flagged for a closer look

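The dimmer Fos probe set read 5.14 in the Control 2 array of replicate 2, far from the other 5 of the 6 control arrays kept, which read between 3.71 and 4.04. The gap to its nearest neighbour was 0.771 of the whole range. Of 18 probe sets examined in this way 1 stood out, and chance alone would mark about 1 in 20. The brighter Fos probe set read 5.38 in the same array, within the other controls.

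Egr1 moved in opposite directions with nickel at 400 µM and cadmium at 1.2 µM, where the mean nickel difference minus the cadmium difference was -2.93 on the log2 scale. Both nickel arrays lay below and the 1 cadmium array above all 4 controls. The difference between the metals was not tested, since cadmium has 1 array, and both share the control arrays of replicate 1.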

How the results depend on the processing

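All 14 list counts at 400 µM nickel and 10 µM chromium, and the 7555 and 5422 calls there, became 0 with all 4 replicates as labelled, which adds the arrays in doubt. Requiring an adjusted p of 0.001 and 1.8-fold left 921 and 265 calls, and 0 at 140 µM nickel. The 234 calls at 140 µM nickel became 96 without the replicate block, 110 without the filter on dim probe sets, 745 in 1 fit over all metals, 1138 with control arrays as separate samples and 0 as labelled. Control arrays as separate samples gave 7 calls at 0.275 µM chromium, in place of 0, and 3 at 1 µM, in place of 1. That 1 call was lost, with 0 left, with the Control 2 arrays alone, in 1 fit over all metals, as labelled, after renewed quantile normalization, at the stricter threshold and without each replicate. Without the filter, 6 MAP kinase inhibitors were called in place of 3 with nickel, and 2 Myc partners in place of 1 and 10 Myc targets in place of 17 with chromium. Without the replicate block, 2 MAP kinase inhibitors were called in place of 5 with chromium, and no other count but that at 140 µM nickel moved by over 1.5 times.

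Leaving out 1 exposed array, or the controls of 1 replicate, was added after seeing the data, and gave 0 to 21 calls at 140 µM nickel, 4646 (without the controls of replicate 1) to 8078 at 400 µM nickel and 2197 (likewise) to 3656 at 10 µM chromium. The list counts then ran, with nickel, from 3 to 5 for ligands and receptors and 8 to 14 for Myc targets. With chromium they ran from 8 to 12 for other immediate early genes, 1 to 3 for MAP kinase inhibitors, 2 to 4 for ligands and receptors, 1 to 3 for the kinase cascade, 1 to 2 for Myc partners and 7 to 10 for Myc targets. The lone sample left in an exposure was assumed to vary like the others. Of the 17 member differences past 1.8-fold, 17 stayed past it with the Control 1 arrays alone, 15 with Control 2, 16 after quantile normalization, and 9 of the 10 with 2 replicates without replicate 1 and likewise without replicate 2. None of these 17 changed sign under the alternatives run.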

Other observations

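In the cadmium array at 1.2 µM several early genes outside the members, with no replicate, stood above the controls of the same replicate. Gadd45a, a growth arrest gene, read 2.56 higher, Klf10 1.18, Csrnp1 1.11, Gadd45g 1.00 and Ier5 0.86. Of the 34 other immediate early genes 5 were at least 1.8-fold higher and 0 lower there, with Ier5 just past the threshold. Over all probe sets tested 1.36% were higher and 0.999% lower by that fold.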
